A study of Homo sapiens with 18 samples.

Results

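The 42 genes described here encode proteins of DNA replication and mitosis and are widely read as marks of proliferating cells. They were taken by gene name from a count table of 19901 genes, and all 42 were found and passed the filter on low counts. They were followed in 3 established head and neck squamous cell carcinoma lines: Detroit 562, grown from a metastatic site of a pharynx tumour, FaDu, from a primary hypopharynx tumour, and SCC-9, from a tongue tumour. Each line had 3 untreated control libraries and 3 libraries from cells given 50 ng/mL hepatocyte growth factor (HGF), the ligand of the receptor tyrosine kinase Met, for 16 h, so 18 libraries in 6 groups of 3. The medium was MEM-α for Detroit 562 and FaDu, while SCC-9 grew in DMEM F12 to which hydrocortisone was added, so SCC-9 and its medium cannot be told apart. The comparisons address how HGF changes expression of the proliferation genes in each line, whether the lines respond differently, and how the untreated lines differ.

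Cells copy their genome once per division. MCM proteins are loaded on replication origins by CDC6 and CDT1 (licensing), are turned into active helicases by MCM10, CDC45 and the GINS proteins, and copying then needs deoxynucleotides and the sliding clamp PCNA. Entry into mitosis is driven by CDK1 with B-type cyclins after CDC25 phosphatases remove inhibitory phosphates, and the spindle is then built by kinesin motors and watched by the checkpoint kinases. Replication genes are mostly transcribed around the start of S phase under E2F factors, and mitotic genes in G2 under the MuvB complex with B-MYB and FOXM1. The 42 genes were grouped by role: 16 replication genes (8 licensing, 4 helicase activation, 4 nucleotide supply and clamp), 5 transcription factors and interphase cyclins, and 21 mitotic genes (6 mitotic entry kinases and phosphatase, 5 spindle checkpoint and chromosomal passenger, 2 anaphase-promoting complex, 8 spindle motors, centromere and chromosome).

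The upstream sequences of the genes the results turn on are shown with 3 promoter motifs known from cell cycle genes. RefSeq windows (GRCh38.p14) from 250 bases before to 50 bases after the transcription start were matched for 32 of the 42 genes, and the 160 bases before the start are printed 5′ to 3′ on the gene's strand. Capitals mark matches on either strand to the CCAAT box (CCAAT), the cell cycle homology region or CHR (TTTGAA or TTCGAA), and an E2F element (TTTCCCGC, TTTGGCGC, TTTGCCGC or TTTCGCGC). CDC25C, CENPF and KIF20A are shown because HGF lowered them in Detroit 562, MKI67 as a widely used proliferation marker, CDC6 because it was higher with HGF in every same-number pair of libraries, and MCM6 as a licensing gene with E2F elements.
CDC25C, chr5:138331805-138331964, minus strand: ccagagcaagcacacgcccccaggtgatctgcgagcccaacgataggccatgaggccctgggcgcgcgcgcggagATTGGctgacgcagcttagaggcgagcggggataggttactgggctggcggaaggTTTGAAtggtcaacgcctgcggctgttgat
CENPF, chr1:214603035-214603194, plus strand: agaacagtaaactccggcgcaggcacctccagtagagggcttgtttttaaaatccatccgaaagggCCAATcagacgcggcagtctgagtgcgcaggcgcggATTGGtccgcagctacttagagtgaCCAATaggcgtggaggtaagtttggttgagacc
KIF20A, chr5:138178952-138179111, plus strand: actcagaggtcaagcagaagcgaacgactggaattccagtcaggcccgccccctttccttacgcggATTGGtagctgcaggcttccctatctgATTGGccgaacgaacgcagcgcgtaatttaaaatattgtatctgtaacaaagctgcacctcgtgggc
MKI67, chr10:128126424-128126583, minus strand: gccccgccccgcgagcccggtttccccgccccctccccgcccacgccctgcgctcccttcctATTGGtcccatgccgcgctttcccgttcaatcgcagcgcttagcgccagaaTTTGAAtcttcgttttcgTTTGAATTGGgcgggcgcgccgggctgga
CDC6, chr17:40287719-40287878, plus strand: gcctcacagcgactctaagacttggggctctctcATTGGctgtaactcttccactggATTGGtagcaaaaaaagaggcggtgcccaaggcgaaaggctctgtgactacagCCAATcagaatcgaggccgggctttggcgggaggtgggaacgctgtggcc
MCM6, chr2:135876444-135876603, minus strand: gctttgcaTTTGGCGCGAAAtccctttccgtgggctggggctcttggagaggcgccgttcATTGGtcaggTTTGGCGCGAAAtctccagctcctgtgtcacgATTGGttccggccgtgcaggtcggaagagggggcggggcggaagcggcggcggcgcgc
The CDC25C promoter held a CCAAT box 85 bases and a CHR 30 bases before the start. KIF20A held 2 CCAAT boxes and no CHR of these letters in its window. In CENPF, 3 CCAAT boxes lay before the start and a CHR 40 bases after it, outside the printed stretch. In MKI67 the CHR nearest to the start overlaps a CCAAT box, and in MCM6 both E2F sites are read on both strands, so their matches overlap. In CDC6 the E2F element lay 7 bases after the start.

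A CHR was found in 12 of 16 mitotic windows (75.0%) and in 2 of 14 replication windows (14.3%), beside 12.9% of 15108 windows of all genes. An E2F element was found in 9 of 14 replication windows (64.3%) and in 1 of 16 mitotic windows (6.25%), beside 4.53% of all windows. CCAAT boxes were common in both, in 11 replication and 14 mitotic windows (78.6% and 87.5%, beside 36.6% of all windows). These are counts of letters in a window, not of bound sites.

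All 42 genes were well counted: library totals ran from 35304770 to 44003970 reads assigned to genes (median 40138919), and the smallest count of any of the 42 genes in any library was 361, for CCNE2. Values are given as normalized counts, that is counts scaled to a common library size, and fold changes on the log2 scale with their standard error (SE). A gene was called when the adjusted p of edgeR's quasi-likelihood test over 15475 genes was below 0.1 and the log2 fold change was at least 0.4 in size. The study's methods say that the seeding, treatment and RNA isolation were done again for repeats, and the labels do not say which library came from which repeat, so p-values measure the spread between these libraries. The 7 epithelial markers were detected in every group, with a summed level of 3206 to 12892 CPM (counts scaled to library size), although KRT14, a basal keratin, was at 0.811 to 1.39 CPM in Detroit 562 against 206 or more in the other lines. Replicate 3 stood apart in both groups of Detroit 562. On the first principal component of the 6 Detroit 562 libraries, control 3 lay at -5.78, between the other controls (-41.7 and -34.7) and the HGF libraries. HGF replicate 3 lay at 51.8, beyond the other HGF libraries (16.3 and 14.2). On that of the FaDu libraries, control 3 (14.95) was also apart from controls 1 and 2 (-26.0 and -24.7). FaDu HGF replicate 3 was at 42.1, beside 5.34 and -11.6 for the other HGF libraries. On that of the SCC-9 libraries, control 3 (27.0) was apart from controls 1 and 2 (-8.08 and 5.91). SCC-9 HGF replicate 3 was at 6.87, beside -24.5 and -7.17 for the other HGF libraries. The main counts and medians in Detroit 562 are also given without control 3. Such a fit keeps HGF replicate 3, so it is not balanced. It called 14.2% of all genes down and 8.95% up, against 11.7% and 6.16% with all libraries.

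In Detroit 562, HGF lowered 3 of the 42 genes and raised none. The 3 genes act in mitosis: CDC25C, the phosphatase that activates CDK1, fell 1.46-fold, CENPF, a large centromere and kinetochore protein, fell 1.38-fold, and KIF20A, a kinesin needed for cytokinesis, fell 1.37-fold. Among all genes tested in this line, 11.7% were called down and 6.16% up, so 3 of 42 (7.14%) down and 0 up is a share below the background in both directions. Most proliferation genes moved little: the median log2 fold change over the 42 genes was -0.10 (range -0.55 to 0.28), beside -0.01 over all genes, and 10 of the 42 were above 0.

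CDC25C measured 889, 852 and 605 normalized counts in the 3 Detroit 562 controls and 534, 590 and 482 with HGF. Every HGF library was below every control, although control 3 lay much nearer to them than the other controls did. The means were 782 ± 154 and 536 ± 54.3 (SD, n = 3 each), a log2 fold change of -0.55 (SE 0.141, 95% interval -0.85 to -0.25) with an adjusted p of 0.0114 by edgeR's quasi-likelihood test. It was lower in 3 of 3 pairs of libraries with the same number, and an exact permutation test, two-sided, gave p = 0.1, the smallest that 3 against 3 allows.

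CENPF measured 6659, 6345 and 5189 normalized counts in the controls and 3823, 4999 and 4377 with HGF. The groups did not overlap, but HGF replicate 2 came close to control 3. The means were 6064 ± 774 and 4399.7 ± 588 (SD, n = 3 each), a log2 fold change of -0.46 (SE 0.151) with an adjusted p of 0.0344 by edgeR. KIF20A measured 8387, 7933 and 6769 in the controls and 5979, 6101 and 4779 with HGF. All 3 treated libraries were again below all controls, with control 3 the lowest control and HGF replicate 3 the lowest treated library. The means were 7696 ± 834 and 5619 ± 731 (SD, n = 3 each), a log2 fold change of -0.45 (SE 0.106) with an adjusted p of 0.00678 by edgeR. Both genes were lower in 3 of 3 pairs (exact permutation p = 0.1, two-sided).

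The libraries behind these values matter for the calls. Without control 3 the 3 genes kept their calls, at log2 fold changes of -0.7 for CDC25C, -0.56 for CENPF and -0.54 for KIF20A, and MCM10 was also called, at 0.40 (adjusted p = 0.00684 by edgeR). Without control 1, CDC25C alone was called, since CENPF then stood at -0.39 (adjusted p = 0.148) and KIF20A at -0.39, just under the fold set for a call. CENPF was also not called without control 2 (adjusted p = 0.108) or without HGF replicate 1 (adjusted p = 0.117), and KIF20A without HGF replicate 3, at a log2 fold change of -0.35.

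**Figure D1:**
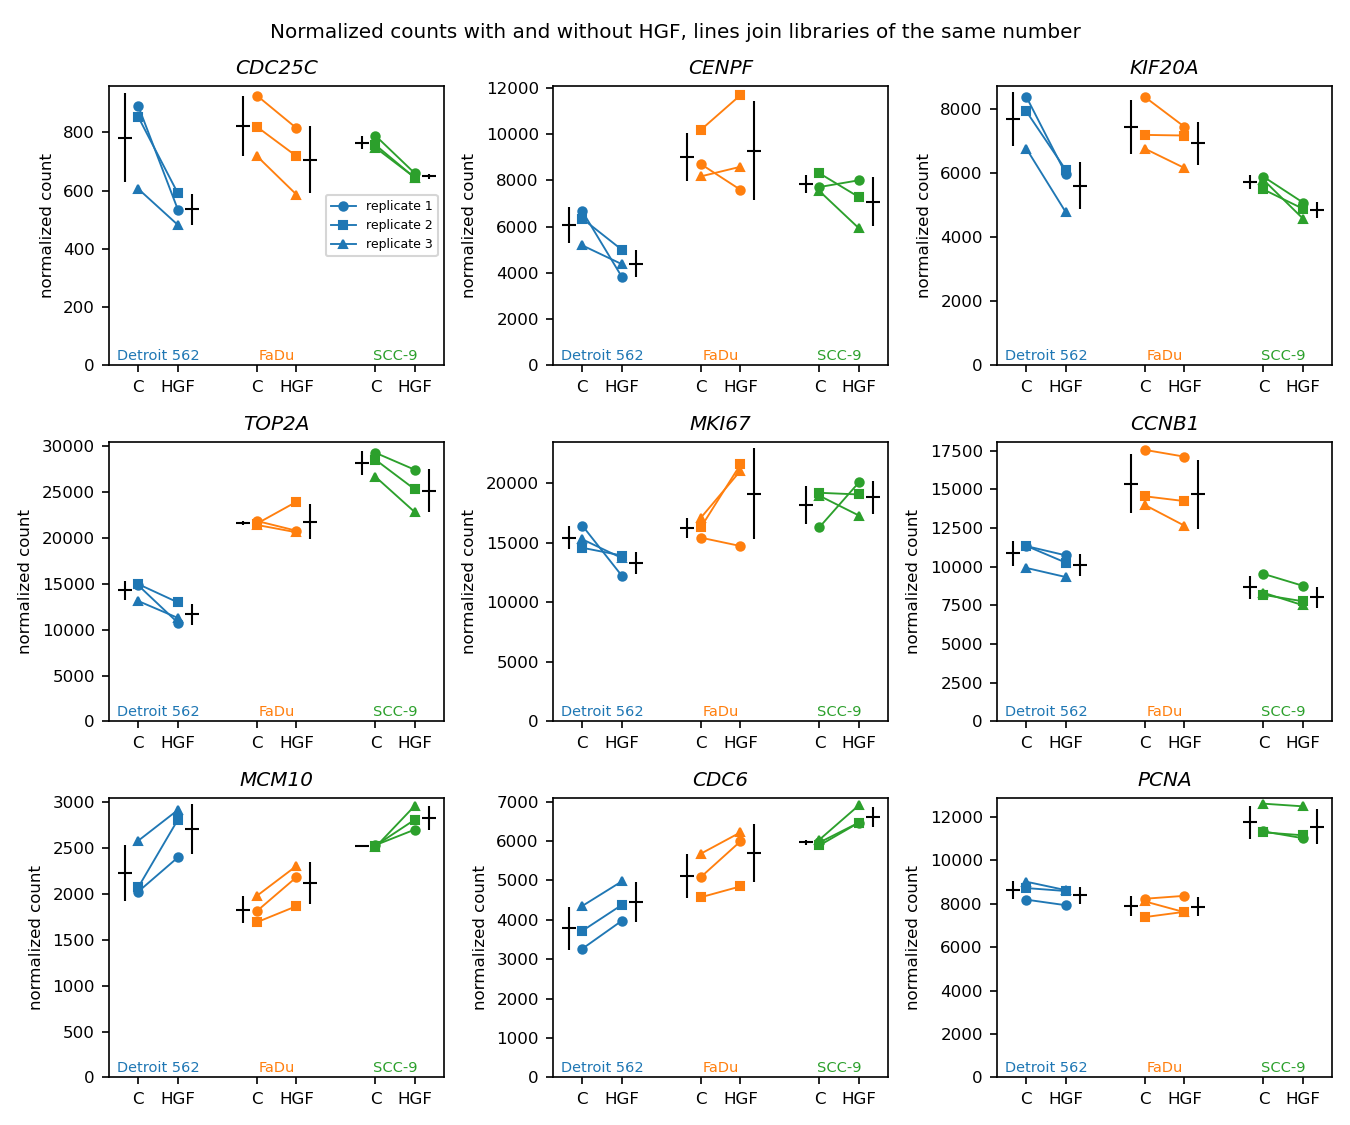
Normalized counts of 9 proliferation genes by library in the 3 lines, control beside HGF; thin lines join libraries with the same replicate number and black bars give the mean ± SD of 3 libraries. In Detroit 562 all 3 HGF values of CDC25C (482 to 590), CENPF and KIF20A lie under all 3 control values, while PCNA values of the groups overlap in every line.

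Few of the 42 genes had a log2 fold change as large as 0.4, and when the adjusted p alone was used, 13 of the 42 genes were lower with HGF in Detroit 562 and 1 was higher, beside 17.2% and 16.9% of all genes tested. By role, 9 of 21 mitotic genes and 2 of 16 replication genes were among the lower ones. Leaving out 1 library gave 12 lower and 2 higher genes without control 3 (beside 19.3% and 19.2% of all genes), and the lower ones were 8 without HGF replicate 3, 7 without control 2 and 5 without control 1. For these last fits the share of all genes was not computed, so the counts have no background. With all libraries, the lower mitotic genes were, besides CDC25C, CENPF and KIF20A, the spindle motors KIF11 (-0.26) and KIF23 (-0.21), the topoisomerase TOP2A (-0.29), which untangles sister chromatids, the spindle factor TPX2 (-0.15) and the checkpoint kinases TTK (-0.26) and BUB1B (-0.14). BUB1B shares 3709 bases with a second gene of the same strand, so its count is uncertain. The replication genes were TYMS, which makes thymidylate (-0.23), and MCM3 of the MCM ring (-0.13). The others were FOXM1 (-0.20), a transcription factor of mitotic genes, and E2F8 (-0.32), a repressor of E2F target genes. The gene that was higher was MCM10, which helps the helicase to start, with 2026, 2075 and 2580 normalized counts in the controls and 2398, 2809 and 2914 with HGF, groups that overlapped (log2 fold change 0.28, SE 0.101, adjusted p = 0.0507 by edgeR).

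The median log2 fold change by role in Detroit 562 was -0.01 for the 16 replication genes and -0.14 for the 21 mitotic genes, of which 2 were above 0. It was -0.24 for the 8 spindle, centromere and chromosome genes and -0.11 for the 6 mitotic entry genes. AURKA, a mitotic kinase, had a log2 fold change of -0.00 (SE 0.0985), and PLK1, another, one of -0.05 (SE 0.094). CDC20, which activates the anaphase-promoting complex, had 0.09 (SE 0.0798). The groups did not overlap for 14 of the 42 genes, all lower with HGF, whereas over all genes tested 20.1% were lower and 18.1% higher without overlap. Without control 3, 21 were lower and 5 higher, beside 30.3% and 27.8% of all genes, and the medians were -0.01 for the replication genes, -0.20 for the mitotic genes and -0.10 for all 42.

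**Figure D2:**
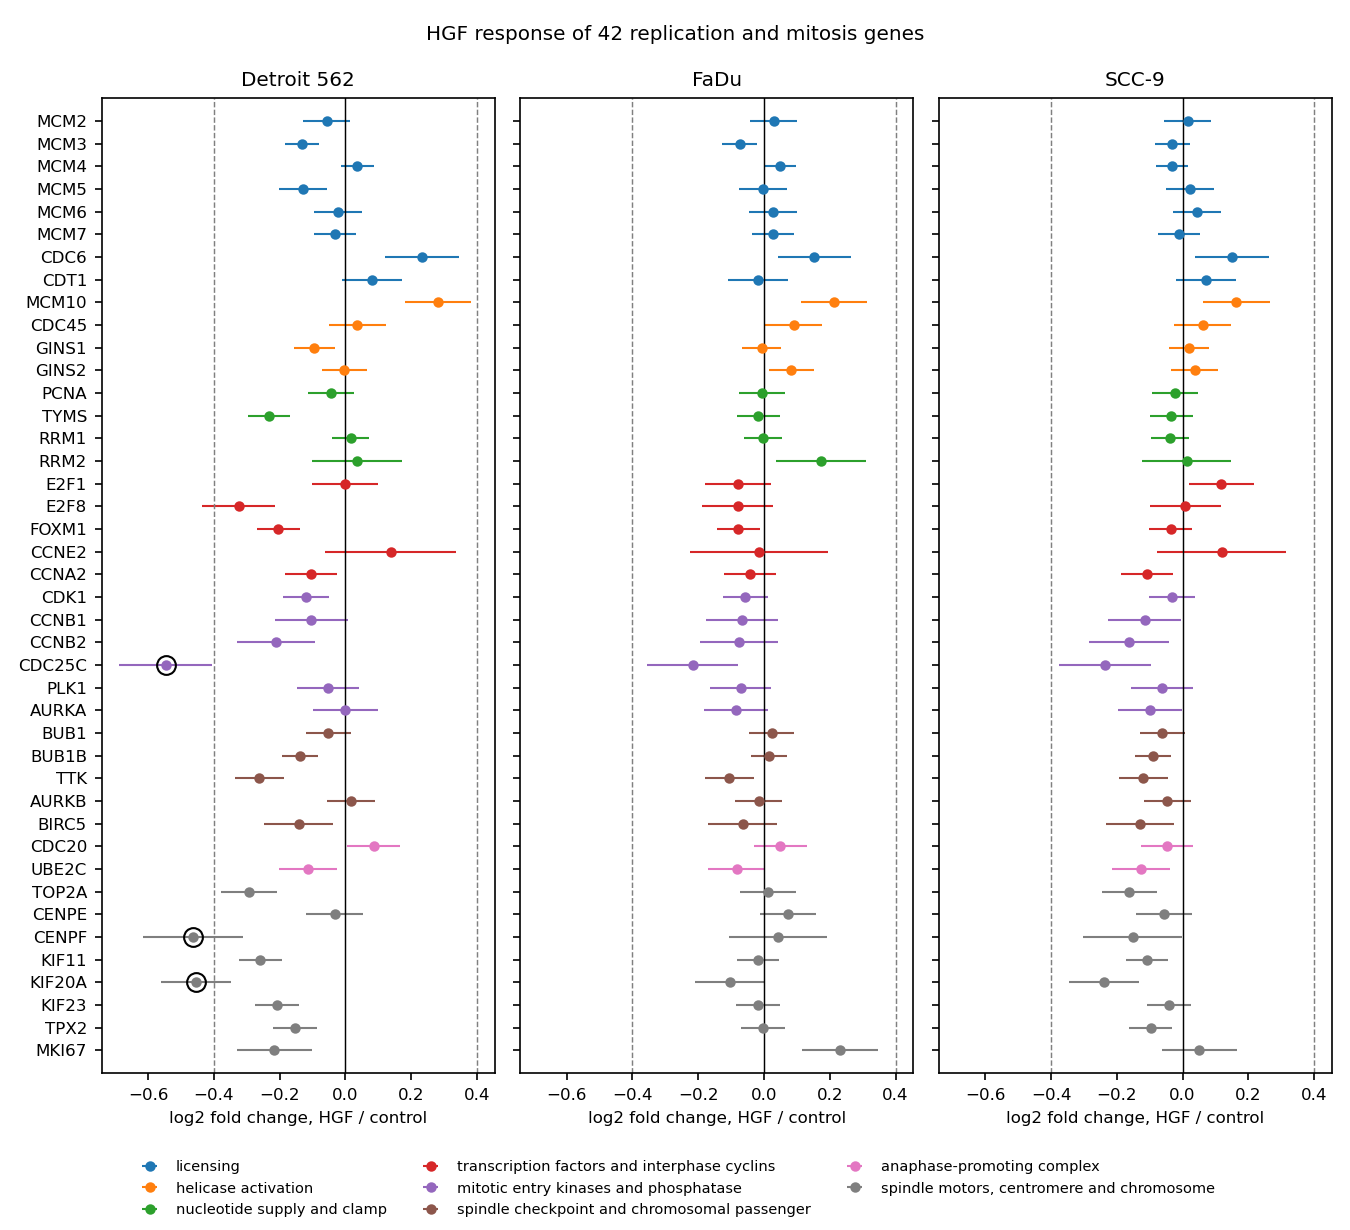
Log2 fold change with HGF (points, with bars of ± 1 SE) for the 42 genes in role order, 1 panel per line; dashed lines mark ± 0.4 and black rings the called genes. In Detroit 562 the rings sit on CDC25C, CENPF and KIF20A at -0.55, -0.46 and -0.45, and no gene of FaDu or SCC-9 is ringed.

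The markers used most often to judge proliferation were not called in Detroit 562. MKI67, the gene of the Ki-67 protein that coats mitotic chromosomes, measured 16430, 14574 and 15282 normalized counts in the controls and 12219, 13926 and 13710 with HGF. The treated libraries were all below the controls. The log2 fold change was -0.22 (SE 0.115) with an adjusted p of 0.178 by edgeR. PCNA measured 8191, 8725 and 9017 in the controls and 7934, 8589 and 8629 with HGF, and the groups overlapped (log2 fold change -0.04, SE 0.0698). CCNB1, the B-type cyclin that partners CDK1, measured 11326, 11337 and 9914 in the controls and 10725, 10253 and 9325 with HGF, and here too the groups overlapped (-0.10, SE 0.111). TOP2A measured 14821, 14962 and 13118 in the controls and 10756, 12974 and 11282 with HGF, without overlap (-0.29, SE 0.0845, adjusted p = 0.0196 by edgeR), short of the fold set for a call.

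Libraries with the same replicate number deviated together within each line, although in Detroit 562 this set apart mainly number 3. A second model therefore also gave every same-number pair of libraries its own term, a replicate block. In the blocked fit the same 3 genes were called in Detroit 562, beside 14.4% of all genes down and 7.13% up, with adjusted p of 3.54e-05 for CDC25C, 0.00129 for CENPF and 3.45e-06 for KIF20A. At the adjusted p alone, the blocked fit had 21 of the 42 genes lower and 3 higher, beside 27.3% and 26.3% of all genes. Without pair 3 these were 17 lower and 6 higher, beside 25.7% and 24% of all genes. Mitotic genes made up 15 of the 21, and the further ones included CDK1 (-0.12), CCNB1 (-0.10), CCNB2 (-0.21), the chromosomal passenger BIRC5 (-0.14), the ubiquitin-conjugating enzyme UBE2C (-0.11) and MKI67 (adjusted p = 0.0643). The 3 that were higher belong to replication and its start: MCM10 (adjusted p = 0.00065), CDC6 (0.000435) and CCNE2, an E-type cyclin (0.0571). CDC6 measured 3268, 3723 and 4355 in the controls and 3979, 4381 and 4979 with HGF, so each treated library was above its same-number control while the groups as a whole overlapped.

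The other 18 genes passed the adjusted p in neither fit in Detroit 562, with log2 fold changes from -0.09 (GINS1) to 0.09 (CDC20). Most belong to replication. MCM2 (-0.06, SE 0.0711), MCM4 (0.04, SE 0.0498), MCM6 (-0.02, SE 0.0734) and MCM7 (-0.03, SE 0.0644) form the helicase ring with MCM3 and MCM5, and CDT1 (0.08, SE 0.0909) loads it. CDC45 had 0.04 (SE 0.086) and GINS2, a partner of GINS1, -0.00 (SE 0.0696). The ribonucleotide reductase subunits RRM1 and RRM2 had 0.02 (SE 0.0575) and 0.04 (SE 0.137), and E2F1, an activator of replication genes, -0.00 (SE 0.101). Of the mitotic genes, the checkpoint kinase BUB1 had -0.05 (SE 0.068), the chromosomal passenger kinase AURKB 0.02 (SE 0.0719) and the centromere motor CENPE -0.03 (SE 0.0861). PCNA, PLK1 and AURKA, described above, make up the rest.

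Summed over the 42 genes, the share of all counts in Detroit 562 was 0.770% ± 0.0239 in the controls and 0.691% ± 0.0364 with HGF (SD, n = 3 each), and without control 3 the control share was 0.784% ± 0.00454 (SD, n = 2). In bulk RNA, fewer cells in a phase of the cycle and less RNA per cell cannot be told apart, so these values do not say how many cells were dividing. Other measures moved with HGF in the same libraries. The summed level of the 7 epithelial markers was 5076 to 7431 CPM in the controls and 3206 to 4748 with HGF. Not all of them fell: EPCAM was higher, at 409 to 424 CPM in the controls and 454 to 478 with HGF. KRT14 was low in both groups (1.00 to 1.39 and 0.811 to 1.33 CPM). The share of counts from 13 mitochondrial genes was 1.45% to 1.84% in the controls and 0.837% to 1.19% with HGF. Of 6 fibroblast markers, the sum was 28.7 to 53.7 CPM in the controls and 13.9 to 26.0 with HGF, and PDGFRB was at 0 in all 6 libraries and DCN in all 3 HGF libraries. Leukocyte markers summed to at most 0.286 CPM and endothelial markers to at most 2.96 in this line. The part of these shifts in the result was not tested.

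**Figure D3:**
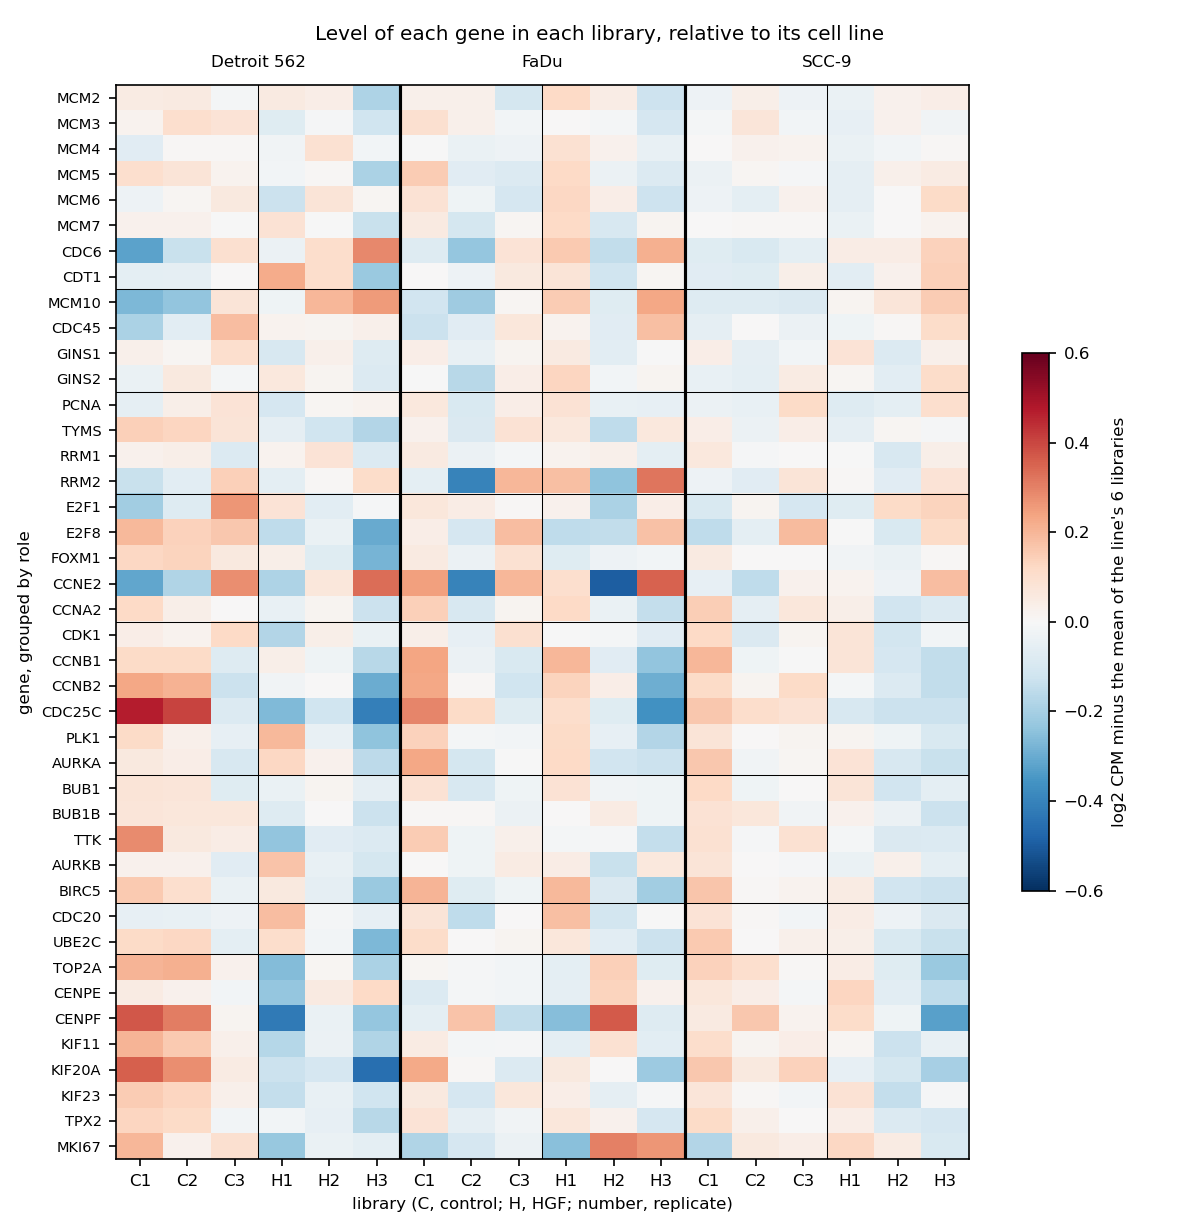
Log2 CPM of the 42 genes (rows, by role) in 18 libraries (columns, by line and treatment), each as the difference from the mean of the 6 libraries of its line. In Detroit 562 the mean over the mitotic rows is 0.16 and 0.12 in controls 1 and 2, -0.01 in control 3 and -0.17 in HGF replicate 3.

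In FaDu and SCC-9, none of the 42 genes was called with HGF. In FaDu 0.0258% of all genes were called up and 0% down, and in SCC-9 0% up and 0% down. The absence of calls is thus that of nearly every gene in these lines and not of proliferation genes in particular. At an unadjusted p below 0.05 there were 0 of the 42 genes in FaDu, beside 8.06% of all genes, and 1 in SCC-9, KIF20A, beside 4.14%. DESeq2 also called 0 of the 42 in each line, beside 0.426% of all genes with its prior and 0.42% without it in FaDu, and 0.123% either way in SCC-9. The median log2 fold change of the 42 genes was -0.01 in FaDu and -0.04 in SCC-9. The mean over the 21 mitotic genes in SCC-9 was lower with HGF in each same-number pair (log2 differences of -0.06, -0.10 and -0.14). In FaDu these differences were -0.06, 0.04 and -0.07, and in Detroit 562 -0.23, -0.14 and -0.16. Of the 42 genes, 20 in SCC-9 were lower in 3 of 3 pairs and 6 higher, beside 25% and 23.9% of all genes. In FaDu 9 were lower and 6 higher, beside 23.9% and 20%, and in Detroit 562 21 and 3, beside 33.1% and 30.6%.

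MKI67 in FaDu measured 15422, 16298 and 17101 normalized counts in the controls and 14722, 21568 and 21037 with HGF. Treated libraries 2 and 3 were above all controls and library 1 below all of them, and the log2 fold change of 0.23 (SE 0.115) had an adjusted p of 0.623 by edgeR. In SCC-9, MKI67 measured 16304, 19191 and 18941 in the controls and 20066, 19049 and 17280 with HGF, a log2 fold change of 0.05 (SE 0.115). PCNA was nearly level in both lines, with 8233, 7388 and 8110.0 in FaDu controls, 8367, 7630.3 and 7613 in FaDu with HGF, 11338, 11291 and 12614 in SCC-9 controls and 11022, 11157 and 12491 in SCC-9 with HGF. Its log2 fold changes were -0.01 (SE 0.0698) and -0.02 (SE 0.0696).

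CCNB1 was lower in each same-number pair of both lines but by less than its spread among controls. It measured 17540.0, 14543 and 13980.0 in FaDu controls and 17102, 14232 and 12643 with HGF (-0.07, SE 0.11). In SCC-9 it measured 9531, 8174 and 8313 in controls and 8760, 7758 and 7503 with HGF (-0.12, SE 0.111). TOP2A measured 21854, 21563 and 21419 in FaDu controls and 20787, 23946 and 20622 with HGF, values on both sides of the controls (0.01, SE 0.0843). In SCC-9 it measured 29287, 28530.0 and 26671 in controls and 27429, 25287 and 22802 with HGF, where library 1 of the treated group lay among the controls (-0.16, SE 0.0843).

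The precision of these comparisons bounds what HGF could have changed. The 95% interval of the log2 fold change lay within ±1 for all 42 genes in each line, and within ±0.4 for 31 genes in Detroit 562 and 37 in each other line. The widest bounds in FaDu were -0.51 for CDC25C and 0.47 for MKI67, and in SCC-9 -0.53 for CDC25C and 0.54 for CCNE2. The range among the 3 controls exceeded the size of the HGF log2 fold change for 38 genes in FaDu, 29 in SCC-9 and 23 in Detroit 562. Library 1 was the highest control for 25 of the 42 genes in FaDu and in SCC-9, and for 19 in Detroit 562.

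The blocked fit called none of the 42 genes in FaDu or SCC-9, when 2% of all genes were up and 3.6% down in FaDu, and SCC-9 had 0.562% up and 1.41% down. At the adjusted p alone it had 3 genes higher in FaDu (beside 7.5% of all genes), MCM10 (0.21, adjusted p = 0.0241), CDC6 (0.15, 0.034) and RRM2, the small subunit of ribonucleotide reductase (0.17, 0.0138). The RRM2 count is uncertain, since 8681 of its bases are shared with another gene of the same strand, AC104794.5. In FaDu 1 gene was lower (beside 9.93%), CDC25C (-0.22, adjusted p = 0.0555). In SCC-9 there was 1 higher (beside 1.83%), CDC6 (0.15, adjusted p = 0.0765), and 2 were lower (beside 3.46%), CDC25C (-0.24, 0.0952) and KIF20A (-0.24, 0.013).

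CDC25C, CDC6 and MCM10 thus had values in FaDu and SCC-9 on the same side as in Detroit 562. CDC25C measured 926, 819 and 718 normalized counts in FaDu controls and 814, 718 and 586 with HGF, and 788, 757 and 747 in SCC-9 controls and 659, 643 and 644 with HGF. In SCC-9 all treated libraries were below all controls, and in FaDu the groups overlapped. MCM10 measured 2531, 2525 and 2510 in SCC-9 controls and 2701, 2810.0 and 2962 with HGF, again without overlap. CDC6 measured 5966, 5891 and 6037 in SCC-9 controls and 6471, 6470.1 and 6911 with HGF, also without overlap. In SCC-9 the groups did not overlap for 2 genes that were higher (CDC6 and MCM10) and 5 that were lower (CCNB2, CDC25C, TTK, KIF11 and KIF20A), beside 8.3% and 9.12% of all genes, and in FaDu for none, beside 4.05% and 5.36%.

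**Figure D4:**
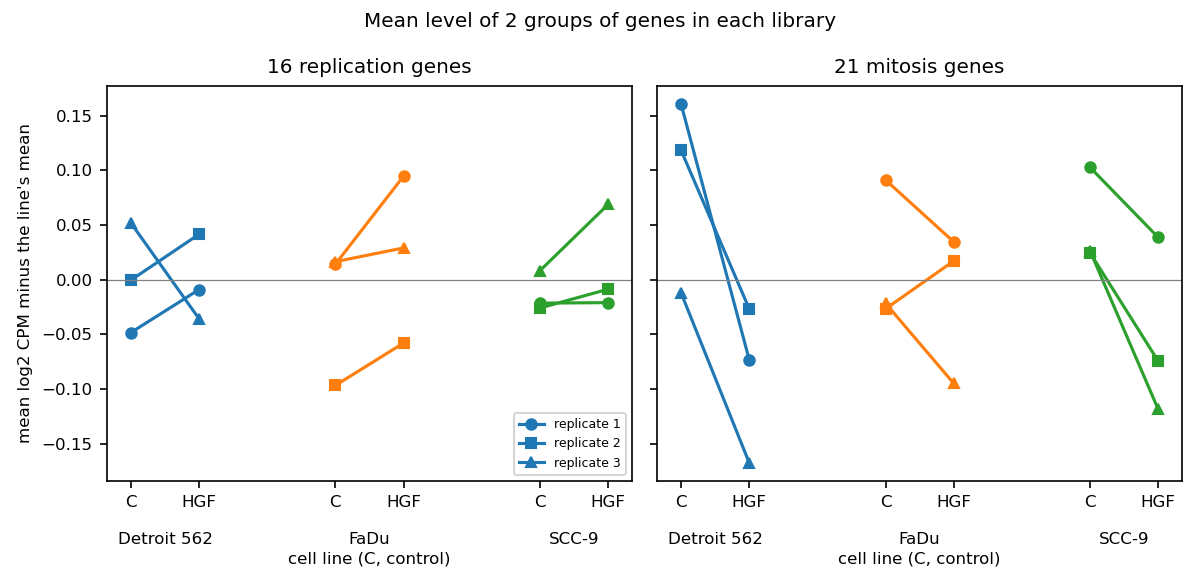
Mean log2 CPM of the 16 replication genes and the 21 mitotic genes in each library, as the difference from the mean of the 6 libraries of its line, control beside HGF, 3 libraries each. The mitotic mean in Detroit 562 is -0.01 to 0.16 in controls and -0.17 to -0.03 with HGF, while the replication means of control and HGF overlap in every line.

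Whether HGF acted differently on these genes in the 3 lines was tested as the difference of the responses. Without the block, none of the 42 genes differed between Detroit 562 and FaDu (0.239% of all genes did), between Detroit 562 and SCC-9 (0.924%) or between FaDu and SCC-9 (0%). At an unadjusted p below 0.05 there were 6, 2 and 0 genes in these comparisons, beside 11.6%, 15.4% and 2.18% of all genes. DESeq2 gave 0 in each, beside 1.73%, 4.2% and 0.0323% of all genes with its prior and 1.68%, 4.26% and 0.0258% without it. The replicate block lowered the median SE of the 42 genes from 0.0796 to 0.0481 in Detroit 562. Of all genes, 8.98% then had a lower response in Detroit 562 than in FaDu and 10.1% a higher one. Of the 42 genes, 10 were lower and 0 higher. The differences were largest for CENPF (-0.49, adjusted p = 0.0317), MKI67 (-0.43, 0.0426), KIF20A (-0.35, 0.00441), CDC25C (-0.32, 0.0533) and TOP2A (-0.30, 0.0266). Against SCC-9 the response was lower for 6 (14.3%) and higher for 0, beside 13.2% and 13.8% of all genes. The share that was lower was thus near that of all genes. Among the 6 were E2F8 (-0.34, adjusted p = 0.0208), CDC25C (-0.30, 0.0494) and KIF20A (-0.22, 0.0361). Between FaDu and SCC-9 there were 0, beside 1.32%. These counts moved with single pairs of libraries. Of the 42 genes, 3 differed from FaDu in either direction without the second FaDu pair and 4 without the first Detroit 562 pair, and from SCC-9 1, 2 and 4 differed without SCC-9 pair 1, 2 and 3 and 4 without the second Detroit 562 pair. Shares over all genes were not computed in these fits, so the counts cannot be set against a background. Without Detroit 562 pair 3, 8 were lower and 1 higher than in FaDu, beside 9.76% of all genes lower, and 6 were lower and 1 higher than in SCC-9, beside 13.1% lower. Without control 3 and without the block, 0 differed in either comparison. Both comparisons with Detroit 562 use the same Detroit 562 libraries.

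Before HGF was given, 20, 20 and 17 of the 42 genes were called between Detroit 562 and FaDu, Detroit 562 and SCC-9, and FaDu and SCC-9. Of all genes, 61%, 65.4% and 64.2% were called, so the 42 genes differed between lines less often than genes in general. The differences went in both directions, with a median ratio of the highest to the lowest line of 1.59 over the 42 genes. Between untreated Detroit 562 and FaDu, 8 genes were higher and 12 lower in Detroit 562, beside 31.2% and 29.8% of all genes. Between Detroit 562 and SCC-9, 11 were higher and 9 lower in Detroit 562, beside 31.4% and 33.9%. Between FaDu and SCC-9, 12 were higher and 5 lower in FaDu, beside 30.7% and 33.5%. The median difference was -0.03, 0.02 and 0.10, close to 0 in each case, and each line was the highest for about as many genes (14 for Detroit 562, 15 for FaDu and 13 for SCC-9). The summed share of counts was 0.857% ± 0.0307 in FaDu, 0.785% ± 0.00637 in SCC-9 and 0.770% ± 0.0239 in Detroit 562 (SD, n = 3 each).

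Licensing genes differed by member within the MCM ring itself, whose subunits act as a hexamer. MCM2 and MCM3 were lowest in SCC-9, by log2 differences of 1.01 and 1.03 from Detroit 562 and of 0.86 and 0.73 from FaDu. MCM7 fell in the order Detroit 562, FaDu, SCC-9, with all 3 differences called (0.71, 1.11 and 0.40). MCM4 was instead lowest in Detroit 562, with 25314 ± 326 normalized counts in FaDu, 19551 ± 163 in SCC-9 and 11260.0 ± 343 in Detroit 562 (SD, n = 3 each), that is -1.17 and -0.80 in Detroit 562 against FaDu and SCC-9.

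Helicase activation genes also parted. CDC45 measured 5429, 5933 and 7052 in Detroit 562 controls, against 1847, 1924 and 2115 for FaDu and 2352, 2445 and 2387 for SCC-9, well apart for Detroit 562 (log2 difference 1.65, SE 0.0886, from FaDu and 1.36, SE 0.0878, from SCC-9). GINS1, a subunit of the GINS complex of the same helicase, was lower in Detroit 562, by -0.89 from FaDu and -1.02 from SCC-9. RRM2 was highest in SCC-9, with 15263 ± 811 against 7431 ± 757 in Detroit 562 and 5246 ± 1070 in FaDu (SD, n = 3 each), and all 3 differences were called.

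Among the transcription factors and interphase cyclins, CCNE2 and FOXM1 differed most. CCNE2 measured 609, 388 and 589 in FaDu controls, 1358, 1487 and 2045 in those of Detroit 562 and 2070.1, 1925 and 2184 in those of SCC-9. FaDu was below both other lines (log2 difference -1.96, SE 0.209, from SCC-9), and Detroit 562 and SCC-9 overlapped. FOXM1 measured 5510 ± 113 in SCC-9, 13889 ± 385 in Detroit 562 and 16700.0 ± 744 in FaDu (SD, n = 3 each), the lowest in SCC-9 by 1.33 and 1.60 on the log2 scale.

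The mitotic genes, many of which FOXM1 is known to drive, were higher in one line or another by member. CCNB2 was lowest in SCC-9 (log2 differences of 0.88 in Detroit 562 and 0.85 in FaDu over SCC-9). TOP2A was instead highest in SCC-9, at 28163 ± 1350 against 14300.0 ± 1030 in Detroit 562 (SD, n = 3 each, log2 difference -0.98). CCNB1, PLK1 and CDC20 were highest in FaDu, with CDC20 at 20044 ± 1630 against 10015 ± 80.6 in Detroit 562 (SD, n = 3 each). TTK was lower in Detroit 562 than in both other lines (-0.91 and -0.85), which did not differ beyond their spread (0.05, SE 0.0741). MKI67 was not called in any pair of lines, and its values overlapped in all 3 pairs. The genes called in no pair were 11: TYMS, RRM1, E2F1, CCNA2, CDK1, CDC25C, AURKA, BUB1, UBE2C, TPX2 and MKI67.

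**Figure D5:**
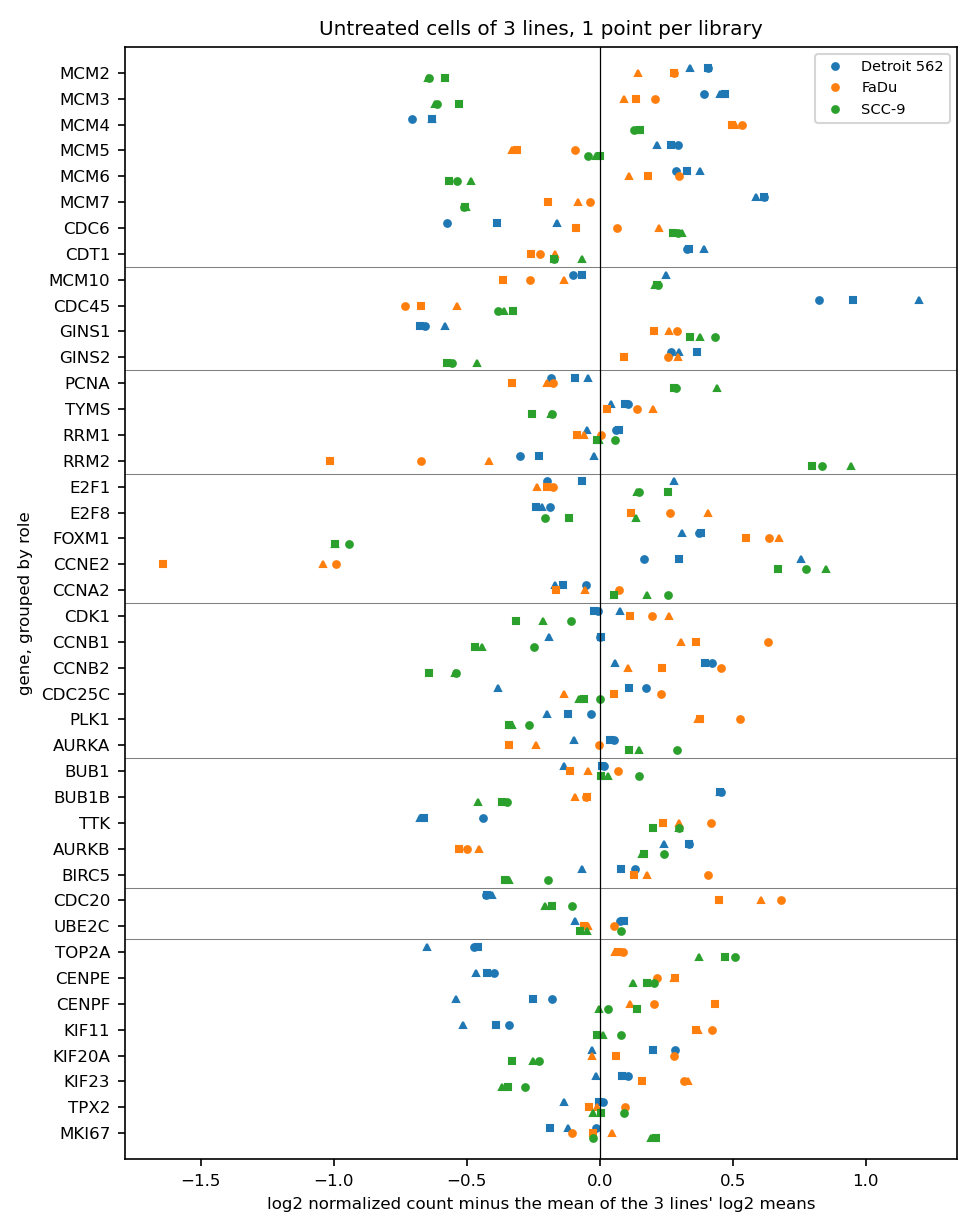
Log2 normalized counts of the 42 genes in the 9 untreated libraries, 1 point per library, as the difference from the mean of the 3 lines' log2 means. CDC45 in Detroit 562 and RRM2 in SCC-9 lie above the other lines, CCNE2 in FaDu and FOXM1 in SCC-9 below them, and MKI67 points of the lines overlap.

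Other genes of the same phases were followed as a companion list of 50 S phase genes and 53 G2 and M phase genes, of which 50 and 51 were found and tested. In Detroit 562, 1 was called up and 4 down of these 101, beside 6.16% and 11.7% of all genes. The one that was higher was TIPIN, a replication fork protein (0.40, SE 0.11). The lower ones were LIG1, the ligase that joins Okazaki fragments (-0.48, SE 0.108), the chromatin protein HMGB2 (-0.46, SE 0.0913), the centrosome kinase NEK2 (-0.41, SE 0.114) and the heterochromatin protein CBX5. The 5 became 2 without control 1 or HGF replicate 3, 3 without control 2, 10 without HGF replicate 2 and 14 without control 3. Of these fits, the share of all genes was computed only for the one without control 3 (8.95% up and 14.2% down). At the adjusted p alone, 5 S phase genes were higher and 8 lower, and 2 G2 and M phase genes were higher and 14 lower, beside 16.9% of all genes higher and 17.2% lower. The blocked fit had 11 and 10 of the S phase genes and 4 and 29 of the G2 and M phase genes, beside 26.3% and 27.3%. None was called in FaDu or SCC-9 (1 and 5 at an unadjusted p below 0.05, beside 8.06% and 4.14% of all genes, and 0 by DESeq2). The medians, given for Detroit 562 first, FaDu second and SCC-9 last, were -0.00, 0.04 and 0.03 for the S phase genes and -0.14, -0.02 and -0.09 for the G2 and M phase genes.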

How the data were processed

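Per the labels and the study's methods, RNA of the 3 lines was made into stranded poly(A) libraries, demultiplexed with bcl2fastq 2.20.0.422, trimmed with cutadapt 1.16, aligned to GRCh38.p12 with STAR 2.5.2b and assigned to genes with bedtools, and the authors tested with DESeq2 1.22.1. The deposited table holds raw read counts per gene. Reads in genes that overlap on 1 strand can be counted for both. The sample records and the study's methods give 16 h of HGF, which is used here, while the series record gives 48 h.

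The counts entered edgeR 4.0.16 under R 4.3.3 (filterByExpr on the 6 groups, TMM, glmQLFit and glmQLFTest on all 18 libraries) and Benjamini-Hochberg adjustment over 15475 genes. A call required both a log2 fold change of 0.4 or more in size and an adjusted p under 0.1, and differences of responses an adjusted p below 0.1. DESeq2 1.42.0 was an alternative. Normalized counts are TMM-scaled CPM times the geometric mean effective library size, and plotted log2 CPM use a prior count of 2. Single genes were also given an exact permutation test, two-sided, whose smallest p with 3 against 3 libraries is 0.1. Detroit 562 medians, overlaps and shares without control 3, and blocked counts without pair 3, were added after seeing the data. The scripts were tested on simulated data.

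The replicate numbers come from the sample labels. Same-numbered control and HGF libraries deviated together from their group means in each line, with correlations across 15475 genes for numbers 1, 2 and 3 of 0.295, 0.161 and 0.454 (Detroit 562), 0.376, 0.441 and 0.563 (FaDu) and 0.332, 0.203 and 0.286 (SCC-9), so a blocked fit stands beside results it changes. In FaDu and SCC-9 every library correlated best with its own number. In Detroit 562, HGF library 2 correlated better with control 1 (0.218) than with control 2, and the numbers mainly set library 3 apart from 1 and 2. Over the 42 genes in that line, HGF library 1 correlated better with control 2 (0.37) than with control 1 (0.29). HGF library 2 did so with control 1 (0.543) rather than control 2 (0.381), while number 3 had 0.638.

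The 42 genes, their roles, the companion and marker lists and the tests were chosen with earlier results of these data known. Values per library were given for called members (up to 5 in each direction) and for MKI67, PCNA, CCNB1 and TOP2A, with up to 3 called companion genes in each direction. MCM10, CDC6, CDC45 and CCNE2 values per library, CDC25C values in FaDu and SCC-9, and CBX5 were added after their values were seen.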

Additional observations from a re-analysis of the deposited data

Results flagged for a closer look

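The response to HGF differed between lines, in the fit with the replicate block, for 16 pairs of gene and comparison, each lower in Detroit 562. These were 10 of the 42 genes against FaDu (23.8%, beside 8.98% of all genes lower) and 6 against SCC-9 (14.3%, beside 13.2%). In either direction, 19.1% of all genes differed from FaDu and 26.9% from SCC-9. Values are the log2 response in Detroit 562 minus that in the other line, with edgeR's adjusted p. Against FaDu the differences were -0.49 for CENPF (0.0317), -0.43 for MKI67 (0.0426), -0.35 for KIF20A (0.00441), -0.32 for CDC25C (0.0533), -0.30 for TOP2A (0.0266), -0.24 for E2F8 (0.0999), -0.24 for KIF11 (0.0388), -0.21 for TYMS (0.0334), -0.19 for KIF23 (0.0755) and -0.16 for BUB1B (0.0923). Against SCC-9 they were -0.34 for E2F8 (0.0208), -0.30 for CDC25C (0.0494), -0.22 for KIF20A (0.0361), -0.20 for TYMS (0.0329), -0.17 for FOXM1 (0.094) and -0.15 for MCM5 (0.079). Without the block none of the 16 passed, at adjusted p of 0.317 to 0.554.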

How the results depend on the processing

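Another scaling, other filters on low counts, DESeq2 with or without its prior, and a fit of the compared lines only left each count of the 42 genes within 1.5 times its value. At the adjusted p alone, Detroit 562 had 1 gene higher and 13 lower, beside 16.9% and 17.2% of all genes. It also had 29 companion genes, beside 34.1% of all genes in either direction. Untreated Detroit 562 and FaDu each differed from SCC-9 at 32 genes (beside 80.2% and 78.9% of all genes). From each other they differed at 28 (beside 76.6%). With a log2 fold of 1 and an adjusted p below 0.05, 0 of the 42 genes were lower in Detroit 562, beside 3.07% of all genes. Of the companion genes 0 changed there, beside 4.01% of all genes in either direction. At these thresholds the untreated lines differed at 4, 7 and 3 genes (Detroit 562 against FaDu, Detroit 562 against SCC-9, FaDu against SCC-9), beside 32.2%, 35.4% and 35.1%.

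The replicate block gave 10 genes with a lower response in Detroit 562 than in FaDu and 6 than in SCC-9, against 0 and 0 without it. Of all genes, 8.98% and 13.2% were lower with the block, against 0.136% and 0.478% without it. With the block and the adjusted p alone, chosen after seeing the data, there were 3 higher and 21 lower with 54 companion genes in Detroit 562, 3 higher and 1 lower with 10 in FaDu, and 1 higher and 2 lower with 10 in SCC-9. Of the companion genes, 14.9% were higher and 38.6% lower in Detroit 562, beside 26.3% and 27.3% of all genes. In FaDu these were 4.95% and 4.95%, beside 7.5% and 9.93%, and in SCC-9 3.96% and 5.94%, beside 1.83% and 3.46%. The block changed no other call of the 42 genes.

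Leaving out 1 library at a time, Detroit 562 had 1 to 3 genes called down and 0 to 1 up, and 2 to 14 companion genes called. The count down was 1 without control 1, and the count up 1 without control 3. Companion genes were 2 without control 1 or HGF replicate 3, 3 without control 2, 10 without HGF replicate 2 and 14 without control 3. At the adjusted p alone, 5 to 12 were lower (5 without control 1, 7 without control 2, 8 without HGF replicate 3) and 0 to 2 higher, a setting chosen after seeing the data. The untreated counts were 19 to 20, 19 to 23 and 17 to 21. The response differed between Detroit 562 and FaDu for 0 to 1 genes, with 1 without FaDu HGF replicate 1. With the block, and 1 same-number pair left out of 1 line, also chosen after seeing the data, the counts were 2 to 4 down in Detroit 562, 2 to 8 companion genes, 3 to 9 differing in either direction from FaDu and 1 to 7 from SCC-9. Apart from the fits without control 3 or pair 3 of Detroit 562, shares over all genes were not computed when libraries were left out. The cause of these shifts was not tested.

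The 3 libraries a group set the precision (median SE 0.0796 in Detroit 562).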

Other observations

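Across the 9 same-number pairs of control and HGF libraries of the 3 lines, MCM3, CCNB1, CDC25C, BIRC5, UBE2C and KIF20A were lower with HGF in all 9, which is 6 of the 42 genes (14.3%) beside 8.42% of all genes tested. CDC6 and MCM10 were higher in all 9 (4.76%, beside 7.7%). Of these genes, CDC25C and KIF20A were also called, in Detroit 562.

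Within lines, the 42 genes varied together only in part. Over the 18 libraries, each centred on its line, the correlation of a gene with the mean of the other members ran from -0.475 for MCM10, -0.401 for CDC6 and -0.35 for CDC45 to 0.857 for the cyclin CCNA2, with MKI67 at -0.139. The median over 861 pairs of genes was 0.247. These libraries share replicate numbers and scaling, and the values are a description only.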
